A study of Mus musculus with 6 samples.

Results

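The genes that write, read and remove DNA methylation were examined in primary osteoblasts of TCKO mice and of WT mice by RNA-seq. They were 10 genes: the oxidising enzymes Tet1, Tet2 and Tet3, the methyltransferases Dnmt1, Dnmt3a and Dnmt3b, the ring finger proteins Uhrf1 and Uhrf2, the glycosylase Tdg and the methyl-CpG binding protein Zbtb4. They were taken by symbol from the deposited table of 16455 genes, which lists all 10 of them. TCKO stands for triple conditional knockout, in which Prx1-Cre acts on homozygous floxed alleles of Tet1 (fl/fl), Tet2 (fl/fl) and Tet3 (fl/fl), and there were 3 TCKO and 3 WT libraries. Cells of both genotypes came from C57/B6 mice 3 days old and were grown for 3 days in medium with serum. The published methods describe digestion of the parietal bone of the skull. Prx1-Cre is active in limb and skull mesenchyme, so other cell types of the dish would keep intact Tet alleles, and the sources used here do not say whether the WT animals carried Cre or floxed alleles. No source ties a library to an animal or litter, so the p-values take in only how far these libraries scatter, and that scatter may be technical.

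DNA methylation in mammals sits mainly on the cytosine of CpG dinucleotides. DNMT3A and DNMT3B place new methyl groups, while DNMT1 copies the pattern onto the daughter strand after replication, guided by UHRF1, which recognises hemimethylated DNA. TET proteins oxidise 5-methylcytosine to 5-hydroxymethylcytosine and further to forms that TDG cuts out before the base is replaced by repair. Cell types that differentiate from stem cells are known to lose methylation at their enhancers in this way.

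Of the 10 genes, 3 were higher in TCKO (Uhrf1, Tet3 and Dnmt1), 2 were lower (Tet1 and Zbtb4) and 5 did not pass (Tet2, Dnmt3a, Dnmt3b, Uhrf2 and Tdg) at an adjusted p under 0.05. The test was the quasi-likelihood test of edgeR, adjusted over all 13630 genes with enough reads to be tested, and every gene of the group was among them. Of all genes tested, 9.44% were higher and 8.9% were lower in TCKO by the same rule. None of the 10 genes changed by a fold above 2, which 6.07% of all genes tested did. The TCKO and WT libraries did not overlap in CPM, counts per 1000000 reads, for 5 of the 10 genes, and for 38.2% of all genes. The median log2 fold change of the group was 0.01, and that of all genes tested was -0.00109.

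Library totals ran from 8119261 to 8986371 reads in TCKO and from 8418241 to 10657824 reads in WT, so 1 CPM stood for about 8.12 to 10.7 reads. Replicates 1 and 2 of each genotype were much alike, though they differed beyond sampling noise, and replicate 3 of each genotype stood apart. The chi-square per degree of freedom between libraries of TCKO was 2.41 for replicates 1 and 2, against 20.9 and 21.2 for pairs with replicate 3. In WT it was 1.69 for replicates 1 and 2 and 14.6 and 15.4 for pairs with replicate 3. With replicates 1 and 2 of each genotype summed into a single library, only Uhrf1 of the 10 genes passed (edgeR adjusted p = 0.0455), and 2.44% of all genes did. With replicate 3 of both genotypes left out, the 5 genes kept their direction and call, Uhrf2 passed as well, and 46.3% of all genes passed.

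**Figure D1:**
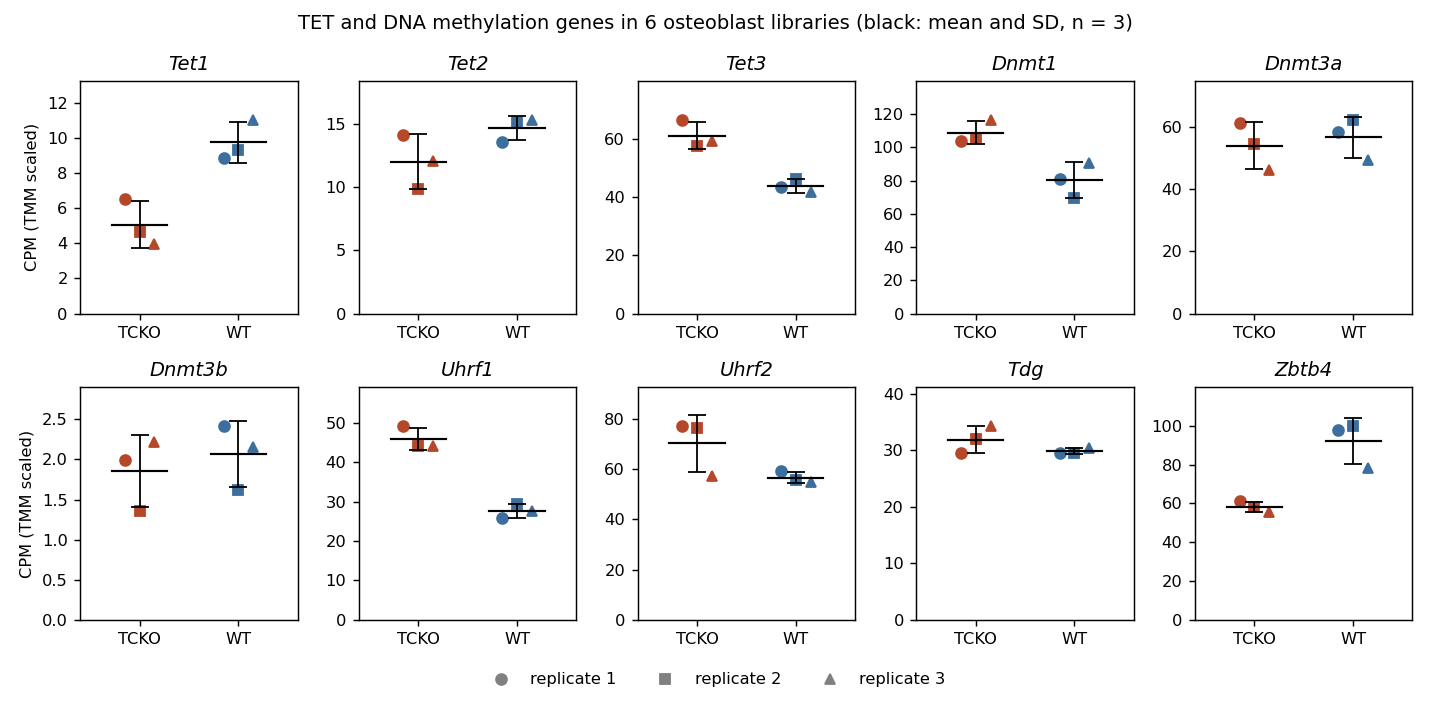
Counts per 1000000 reads (CPM, scaled by TMM) of the 10 genes on the y axis of each panel, with the TCKO libraries in red at the left and the WT libraries in blue at the right. Symbols mark replicates 1 to 3 and black bars the mean and SD (n = 3). The genotypes do not overlap for Tet1, Tet3, Dnmt1, Uhrf1 and Zbtb4.

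The targeted genes did not behave alike as whole-gene counts. Tet1 transcript was lower in TCKO, Tet3 transcript was higher, and Tet2 did not pass. The counts cover all exons of a gene, including those outside the floxed parts, and the sources used here do not give which exons were deleted. They therefore do not check the genotype labels. In bulk samples fewer cells of a type and less RNA per cell cannot be told apart, and this applies to every difference reported here.

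Tet1 (chromosome 10, 62804570 to 62908996, minus strand, GRCm38) carries a CXXC domain that binds unmethylated CpG. It had 6.53, 4.67 and 3.99 CPM in TCKO replicates 1 to 3, against 8.86, 9.30 and 11.02 CPM in WT replicates 1 to 3. All TCKO libraries were below all WT libraries, and replicate 1 of TCKO lay closest to WT. These levels rested on few reads, with 59, 38 and 36 in TCKO and 77, 98 and 92 in WT. The log2 fold change of Tet1 was -0.94 ± 0.22 (SE, n = 3 per genotype, edgeR adjusted p = 0.0207), which is 52.2% of the WT level with a 95% interval from 37.0% to 73.6%. The call was lost without TCKO replicate 2 (edgeR adjusted p = 0.0799), without WT replicate 1 (0.0559), without WT replicate 2 (0.0672) and with replicates 1 and 2 summed (0.125), while the log2 fold change stayed between -1.17 and -0.78.

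Tet2 (chromosome 3, 133463679 to 133545139, minus strand) lacks the CXXC domain of the other TET proteins. It had 14.2, 9.83 and 12.1 CPM in TCKO, against 13.6, 15.2 and 15.3 CPM in WT. TCKO replicate 1 lay above WT replicate 1, so the genotypes overlapped. On the log2 scale the fold change of Tet2 was -0.29 ± 0.16 (edgeR adjusted p = 0.244), and its 95% interval reached from -0.65 to 0.07, or from 63.8% to 105% of the WT level. It stayed short of the threshold in each of the 6 fits with a library left out. Its annotated exons share 43 bases with a transcript on the opposite strand, Gm42567, and the sources used here do not say whether reads were counted by strand.

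Tet3 (chromosome 6, 83362373 to 83459084, minus strand) was the most abundant of the TET transcripts in every library. It had 66.4, 57.5 and 59.1 CPM in TCKO, against 43.3, 46.3 and 41.6 CPM in WT. Each TCKO library was above each WT library. Tet3 rose by 0.48 ± 0.09 on the log2 scale (SE, n = 3 per genotype, edgeR adjusted p = 0.00803), a fold of 1.40. It kept its call in the 6 fits with a library left out (edgeR adjusted p from 0.00706 to 0.0436) and lost it with replicates 1 and 2 summed (0.101).

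**Figure D2:**
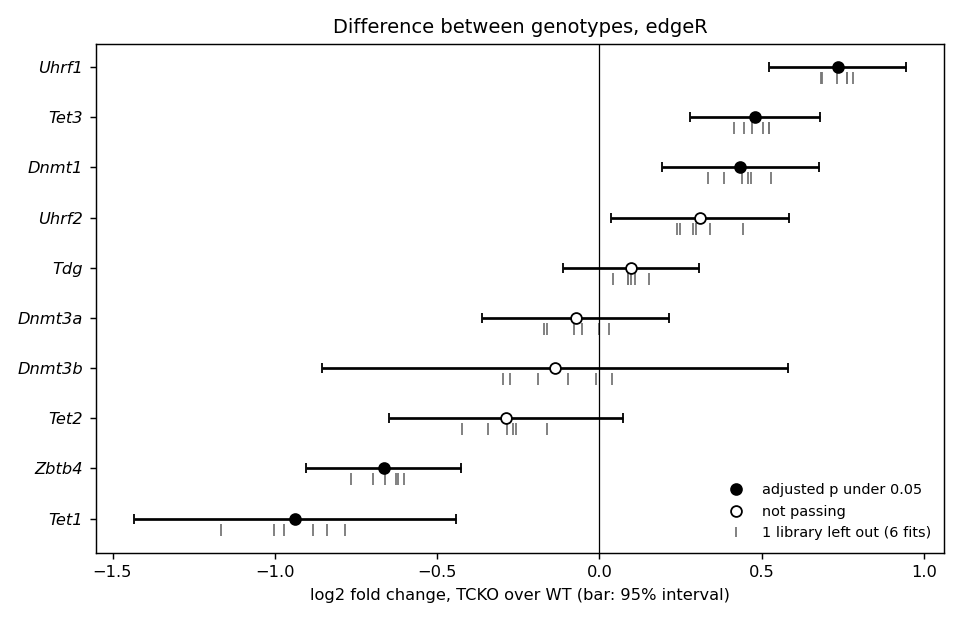
Log2 fold change of TCKO over WT on the x axis for the 10 genes, ordered from the highest to the lowest, from edgeR. Circles give the estimate with its 95% interval, filled where the adjusted p was under 0.05, and the grey ticks give the estimate with 1 library left out. The ticks of Dnmt3a and Dnmt3b fall on both sides of 0, and those of the other genes stay on a single side.

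Summed over the TET genes in RPKM, which is CPM divided by the exon length in kilobases, the TCKO libraries held 5.24, 4.33 and 4.52 RPKM, against 3.97, 4.28 and 4.11 RPKM in WT. The summed whole-gene TET level was thus not lower in TCKO, and its ratio of means was 1.14. The make-up of that sum differed. Tet3 took 78.0 ± 1.87% of it in TCKO and 63.6 ± 2.62% in WT (SD, n = 3 each). Tet1 took 6.92 ± 1.18% in TCKO and 15.3 ± 1.79% in WT, and Tet2 took 15.1 ± 1.43% in TCKO and 21.1 ± 0.918% in WT. The shares are parts of that sum, so a larger share of Tet3 leaves less for the others, and they are not separate results. Tet2 itself overlapped in CPM and did not pass. For the sum and for each share the genotypes did not overlap. The exact two-sided permutation test over the 6 libraries gave p = 0.10 for each of these, the smallest value that 3 against 3 allows (0.14 after Benjamini-Hochberg adjustment over 7 ratios tested), so this design cannot reach 0.05 for a single value.

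**Figure D3:**
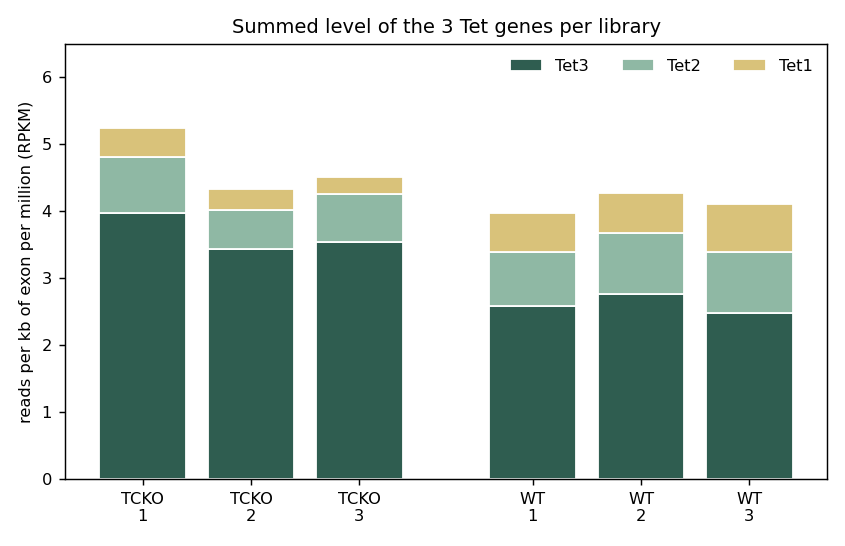
Summed level of Tet3, Tet2 and Tet1 in RPKM on the y axis for each library on the x axis, with the 3 TCKO libraries left of the 3 WT libraries. The Tet3 segment is larger and the Tet1 segment smaller in each TCKO library than in any WT library, and the summed height is 4.33 to 5.24 in TCKO and 3.97 to 4.28 in WT.

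By profile over the 6 libraries, the genes most like each TET gene were ranked by the root mean square difference of centred log2 CPM among 11111 genes with a mean of at least 5 CPM. Closest to Tet1 was Zbtb38 (0.08), itself a gene for a protein that binds methylated CpG, followed by Tmem218 and Antxr1 (0.14 each). Closest to Tet2 were Ing3 (0.07), Rnf170 (0.08) and Nat9 (0.08). Closest to Tet3 were 2810474O19Rik (0.04), Tspan14 (0.05) and Cbx5 (0.05), the gene of a heterochromatin protein. These rankings are descriptions over few libraries.

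Tdg, the thymine DNA glycosylase that removes the last products of TET oxidation (chromosome 10, 82629828 to 82650799, plus strand), did not pass. It had 29.5, 32.0 and 34.3 CPM in TCKO, against 29.6, 29.5 and 30.4 CPM in WT. TCKO replicate 1 lay just below the lowest WT library and the other TCKO libraries above the highest. The log2 fold change of Tdg was 0.10 ± 0.09 (edgeR adjusted p = 0.506) with a 95% interval from -0.11 to 0.31. Exons of Glt8d2 on the opposite strand overlap 6.83% of its exon bases, and the share of its reads that this touches was not measured.

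Several genes of maintenance methylation were higher in TCKO. Uhrf1, Dnmt1 and 4 of the 7 partners tested with them passed upwards, against 9.44% of all genes, and none of this set passed downwards. With replicates 1 and 2 summed, only Uhrf1 of this set passed. Genes of this set are known to be most active in dividing cells around S phase, and E2F transcription factors, which drive many S-phase genes, are known to bind short words rich in G and C after a run of T. Windows of 250 bases before to 50 after each annotated start (RefSeq, assembly GRCm38.p6) were searched on both strands for TTTGGCGC, TTTCCCGC, TTTCGCGC and TTTGCCGC. Such a word stood in 2.27% of 32851 windows of all genes and in 2 of the 15 windows of the 10 genes, 1 of Dnmt1 and 1 of Uhrf1. It also stood in 7 of 18 windows, from 17 DNA replication genes of S phase, and in the window of Hells. The median CpG count was 26 in windows of the 10 genes, 24.5 in those S-phase windows and 7 over all windows. Each word itself holds a CpG, and windows of like CpG content were not compared, so these shares do not single out the words. The words were chosen after the promoters had been seen, and a match is a description of the letters, not a site that was shown to be bound. The windows of Dnmt1 (chr9:20952574-20952873, minus strand), Uhrf1 (chr17:56304063-56304362, plus strand) and Hells (chr19:38930740-38931039, plus strand) are shown because they hold these words, which are in capitals.
Dnmt1: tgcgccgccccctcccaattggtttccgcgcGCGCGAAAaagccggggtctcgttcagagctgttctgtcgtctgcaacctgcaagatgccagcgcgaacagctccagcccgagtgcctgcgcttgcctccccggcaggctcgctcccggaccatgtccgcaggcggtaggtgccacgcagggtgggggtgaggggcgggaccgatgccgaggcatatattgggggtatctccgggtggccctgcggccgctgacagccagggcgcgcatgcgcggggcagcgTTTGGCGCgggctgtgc
Uhrf1: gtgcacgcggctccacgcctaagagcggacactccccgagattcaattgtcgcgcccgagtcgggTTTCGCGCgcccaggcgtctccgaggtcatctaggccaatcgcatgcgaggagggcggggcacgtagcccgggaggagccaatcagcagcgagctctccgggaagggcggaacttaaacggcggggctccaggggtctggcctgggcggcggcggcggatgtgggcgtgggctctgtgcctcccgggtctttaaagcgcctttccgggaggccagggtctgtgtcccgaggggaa
Hells: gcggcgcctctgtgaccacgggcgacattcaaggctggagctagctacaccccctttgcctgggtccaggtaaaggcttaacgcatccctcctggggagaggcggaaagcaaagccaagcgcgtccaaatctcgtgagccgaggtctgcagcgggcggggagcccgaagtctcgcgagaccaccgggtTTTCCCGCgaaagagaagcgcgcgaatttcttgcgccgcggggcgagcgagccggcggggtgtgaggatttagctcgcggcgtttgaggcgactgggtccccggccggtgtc
In the Dnmt1 window the word at base 32 reads on the other strand, as GCGCGAAA, and the word at base 284 on the strand of the gene. The words of Uhrf1 and Hells stand 185 and 62 bases before the start. The Dnmt1, Uhrf1 and Hells windows shown hold 33, 33 and 34 CpG dinucleotides, against a median of 7 over all windows. The other windows of Dnmt1 (chr9:20952930-20953229 and chr9:20959839-20960138) and of Uhrf1 (chr17:56303087-56303386) held none of the words. Their CpG counts were 12, 2 and 12, in that order, so the shown windows do not stand for every annotated start of these genes. The Tet2 window held 57 CpG, more than 99.85% of all windows, and the Tet1 and Tet3 windows held 17 and 22.

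Uhrf1 (chromosome 17, 56303321 to 56323486, plus strand) had the smallest adjusted p of the 10 genes. It had 49.3, 44.2 and 44.3 CPM in TCKO, against 25.8, 29.4 and 27.6 CPM in WT. The lowest TCKO library was well above the highest WT library. Uhrf1 rose by 0.73 ± 0.09 on the log2 scale (SE, n = 3 per genotype, edgeR adjusted p = 0.00149), a fold of 1.66. It passed in the 6 fits with a library left out (edgeR adjusted p from 0.00140 to 0.0118).

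Dnmt1 (chromosome 9, 20907209 to 20959888, minus strand), the maintenance methyltransferase, had 103.9, 105.6 and 116.6 CPM in TCKO, against 81.3, 69.4 and 90.8 CPM in WT. The genotypes did not overlap, and replicate 3 was the highest library of each. Dnmt1 rose by 0.43 ± 0.11 on the log2 scale (SE, n = 3 per genotype, edgeR adjusted p = 0.0253), a fold of 1.35. Its call was lost without TCKO replicate 1 (edgeR adjusted p = 0.0616), TCKO replicate 2 (0.0689), WT replicate 1 (0.0883) or WT replicate 2 (0.0837), and with replicates 1 and 2 summed (0.190).

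Uhrf2 (chromosome 19, 30030513 to 30093722, plus strand), the close relative of Uhrf1 that is known to bind 5-hydroxymethylcytosine, had 77.3, 76.4 and 57.2 CPM in TCKO, against 59.3, 55.8 and 55.0 CPM in WT. Replicates 1 and 2 of TCKO were above all WT libraries, and TCKO replicate 3 fell within the WT range. A log2 fold change of 0.31 ± 0.12 left it short of the threshold (edgeR adjusted p = 0.111, 95% interval 0.04 to 0.59). Without TCKO replicate 3 it was 0.44 and passed (edgeR adjusted p = 0.00422), as it did with replicate 3 of both genotypes left out (0.43, 5.21e-07). The log2 ratio of Uhrf1 to Uhrf2, per length, was 0.41 ± 0.21 in TCKO and -0.03 ± 0.14 in WT, with no overlap between genotypes (SD, n = 3 each, exact two-sided permutation p = 0.10, the smallest possible). For Uhrf1 to Dnmt1 it was -0.45 ± 0.16 in TCKO and -0.75 ± 0.26 in WT, and the genotypes overlapped (SD, n = 3 each, exact permutation p = 0.30).

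The enzymes of new methylation did not pass. Dnmt3a (chromosome 12, 3806007 to 3914443, plus strand) had 61.2, 54.6 and 46.3 CPM in TCKO, against 58.5, 62.4 and 49.5 CPM in WT. The ranges lay over each other, with replicate 3 the lowest library of each genotype. The log2 fold change of Dnmt3a was -0.07 ± 0.13 (edgeR adjusted p = 0.729), and its 95% interval from -0.36 to 0.22 covers changes in either direction. It was 0.03 without TCKO replicate 3. The antisense gene Dnmt3aos shares 133 bases with its exons.

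Dnmt3b (chromosome 2, 153649450 to 153687730, plus strand) was near the limit of detection, with 18, 11 and 20 reads in TCKO and 21, 17 and 18 reads in WT. These were 1.99, 1.35 and 2.21 CPM in TCKO, against 2.42, 1.61 and 2.16 CPM in WT, and the libraries of the genotypes were intermixed. The log2 fold change of Dnmt3b was -0.14 ± 0.31 (edgeR adjusted p = 0.800, 95% interval -0.85 to 0.58). Over all libraries there were 49 reads in TCKO and 56 in WT, a ratio of 0.920 after scaling by library size and TMM. Its exact counting interval at 95% was 0.614 to 1.38, which covers counting error only. The 95% interval of the edgeR fit was wider, from 55.3% to 149.7% of the WT level, and a change within it cannot be told from none. The log2 ratio of Dnmt3a to Dnmt3b, per length, was 3.18 ± 0.48 in TCKO and 3.09 ± 0.41 in WT (SD, n = 3 each, exact permutation p = 0.90).

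Zbtb4 (chromosome 11, 69765912 to 69784023, plus strand) encodes a zinc finger protein that binds methylated CpG and represses transcription. It had 61.0, 58.1 and 55.5 CPM in TCKO, against 98.1, 99.95 and 78.5 CPM in WT. Every TCKO library was below every WT library, and WT replicate 3 lay nearest to TCKO. Zbtb4 fell by 0.66 on the log2 scale (SE 0.10, n = 3 per genotype, edgeR adjusted p = 0.00425), to 63.1% of the WT level. It passed in the 6 fits with a library left out (edgeR adjusted p from 0.000435 to 0.0264) and not with replicates 1 and 2 summed (0.105).

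Set on a scale per exon length, the transcripts of the group spanned a wide range. In TCKO the order of mean RPKM was Dnmt1 (14.7), Uhrf1 (10.8), Uhrf2 (8.19), Zbtb4 (7.17), Tdg (5.94), Tet3 (3.66), Dnmt3a (3.25), Tet2 (0.713), Dnmt3b (0.363) and Tet1 (0.328). The neighbours Uhrf2 and Zbtb4, and Dnmt3b and Tet1, overlapped and changed order from library to library, so they cannot be ordered. The ranges of Tet3 and Dnmt3a overlapped too, but Tet3 was the higher within each TCKO library. For replicates 1 to 3 these were 3.979 against 3.679, 3.445 against 3.279 and 3.541 against 2.781 RPKM. In WT the order was Zbtb4 (11.4), Dnmt1 (10.9), Uhrf2 (6.60), Uhrf1 (6.48), Tdg (5.55), Dnmt3a (3.41), Tet3 (2.62), Tet2 (0.872), Tet1 (0.630) and Dnmt3b (0.404). There the pairs Zbtb4 and Dnmt1, and Uhrf2 and Uhrf1, overlapped. Zbtb4 thus stood with Dnmt1 at the top in WT and below Uhrf1 in TCKO, and Tet1 was above Dnmt3b in each WT library and at its level in TCKO.

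Genes around these 10 were described by list, with counts and medians and no test of the list, to be read against the 9.44% of all genes that were higher, the 8.9% that were lower and their median of -0.00109. With replicates 1 and 2 summed, Mcm6 alone of the genes in these lists, which do not include the cell type markers, passed (edgeR adjusted p = 0.0313). Of 13 TET partners and genes of cofactor supply that were tested, 2 passed upwards and 2 downwards, with a median log2 fold change of -0.07. Idh2, the mitochondrial enzyme that makes the cosubstrate 2-oxoglutarate, reached 0.72 on the log2 scale (edgeR adjusted p = 0.0241), and of the 6 fits with a library left out it passed only without TCKO replicate 3 (edgeR adjusted p of 0.0683 to 0.0918 in the other 5 fits). Slc23a2, a vitamin C transporter, had -0.56 (edgeR adjusted p = 0.0104, kept in all 6 fits), and Gadd45g, a stress gene linked to demethylation, had -0.61 (0.0375), which was likewise kept only without TCKO replicate 3 (0.0931 to 0.124 in the others).

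Among 10 tested genes that repair oxidised or deaminated cytosine, with a median of 0.19, Parp1, which senses strand breaks, passed upwards (0.33, edgeR adjusted p = 0.0167) and none passed downwards. Its call was lost without TCKO replicate 1 (0.0749), TCKO replicate 2 (0.0533), WT replicate 1 (0.0736) or WT replicate 2 (0.0839). Polb, the polymerase that fills the repaired gap, had 0.31 and did not pass (edgeR adjusted p = 0.0803). Of 7 partners of maintenance methylation, 4 passed upwards, with a median of 0.49, and the number was 2 without TCKO replicate 1 or WT replicate 2. Hells, a chromatin remodeller needed for DNA methylation, had 21.5, 18.9 and 15.4 CPM in TCKO, against 10.9, 9.40 and 10.5 CPM in WT, and rose by 0.86 on the log2 scale (edgeR adjusted p = 0.00790). Pcna, the sliding clamp of replication, rose by 0.49 (edgeR adjusted p = 0.00912), and Hells and Pcna kept their calls in the 6 fits. Lig1, the ligase of the lagging strand (0.55, edgeR adjusted p = 0.0146), lost its call without TCKO replicate 1 (0.0565), WT replicate 1 (0.0681) or WT replicate 2 (0.0705). Cdca7, which recruits HELLS (0.89, edgeR adjusted p = 0.0423), lost its call without TCKO replicate 1 (0.146), TCKO replicate 2 (0.118), WT replicate 2 (0.160) or WT replicate 3 (0.0773).

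Of 12 tested partners of new methylation, 3 passed upwards with a median of 0.19, and 5 under the replicate block. They were Trim28, a corepressor of zinc finger proteins (0.37, edgeR adjusted p = 0.0112), and the H3K9 methyltransferases Suv39h1 (0.56, 0.0226) and Ehmt2 (0.25, 0.0395). Without WT replicate 2 none of these passed (edgeR adjusted p = 0.0624 for Trim28, 0.0974 for Suv39h1 and 0.156 for Ehmt2), and without TCKO replicate 2 none did (0.0537, 0.0843 and 0.119, in the same order). Suv39h1 and Ehmt2 also lost their calls without TCKO replicate 1 (0.0561 and 0.0659) or WT replicate 1 (0.0887 and 0.126), and Ehmt2 without TCKO replicate 3 (0.0522). Dnmt3l, the catalytically inactive cofactor of DNMT3A that was picked out after its values were seen, had 10 reads in TCKO and 27 in WT and was not tested. Among 6 readers of methylated DNA, with a median of 0.01, Zbtb38 alone passed. It had 33.5, 25.6 and 20.7 CPM in TCKO, against 39.8, 47.0 and 53.2 CPM in WT, and a difference of -0.81 ± 0.18 on the log2 scale (edgeR adjusted p = 0.0222) that did not pass with WT replicate 2 (0.0791) or TCKO replicate 2 (0.0832) left out, nor under the replicate block (0.0602). Mbd2 had -0.21 and did not pass (edgeR adjusted p = 0.0799). Of 12 genes of methyl donor metabolism, with a median of 0.04, Ahcy, which clears the methyltransferase inhibitor S-adenosylhomocysteine, passed upwards (0.54, edgeR adjusted p = 0.0372) and kept its call only without WT replicate 3 (0.0572 to 0.141 in the other 5 fits).

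Germline genes that promoter methylation is known to silence in somatic cells were hardly seen in either genotype. Of 16 such genes 4 were listed in the table and none had enough reads to be tested. Ddx4 had 9 reads in TCKO and 22 in WT, Sycp3 had 19 in TCKO and 17 in WT, Syce1 had 7 in TCKO and 4 in WT, and Tex11 had 2 in TCKO and 20 in WT. The other 12, Dazl and Sycp1 among them, were not listed and were given no level, since the table lists only genes with at least 10 reads in all.

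**Figure D4:**
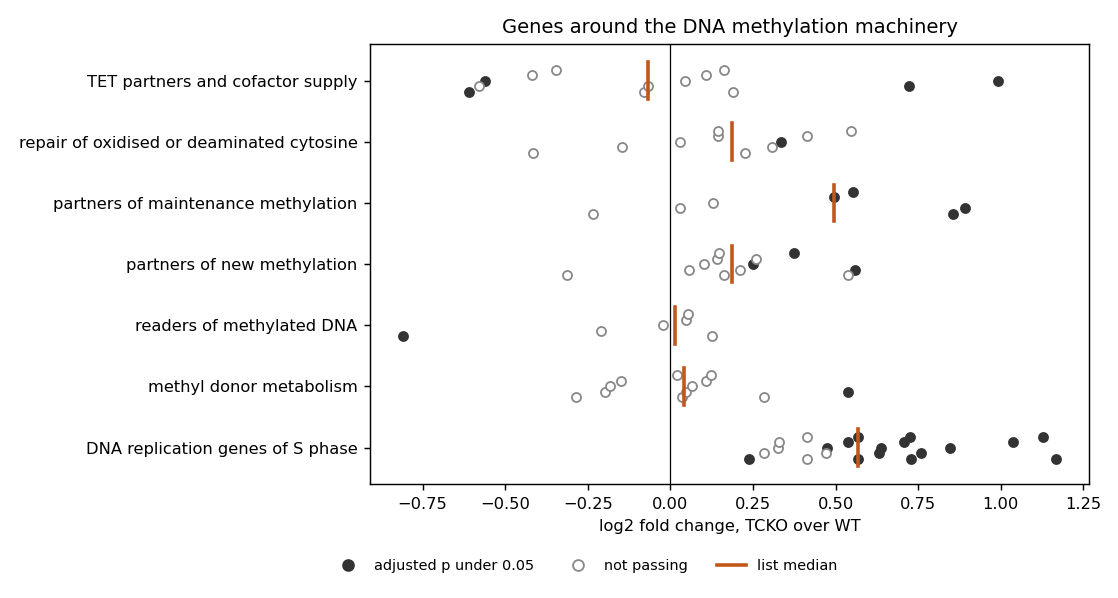
Log2 fold change of TCKO over WT on the x axis for each tested gene of 7 lists, a row per list, with filled circles for an edgeR adjusted p under 0.05, open circles for genes that did not pass, and a vertical bar at the list median. Medians are 0.49 for partners of maintenance methylation and 0.57 for replication genes, and lie between -0.07 and 0.19 for the other lists.

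The rise of Uhrf1, Dnmt1 and Hells stood beside a rise of DNA replication genes. Of 21 S-phase genes 15 passed upwards and none downwards, with a median log2 fold change of 0.57. The number was 7 without WT replicate 1 or 2, 8 without TCKO replicate 1 and 9 without TCKO replicate 2. It was 12 without TCKO replicate 3, 17 without WT replicate 3, 18 under the replicate block and 1 with replicates 1 and 2 summed. Of all genes tested, 1287 were higher in the main fit. They were 634 and 612 without WT replicate 1 or 2, and 700 and 720 without TCKO replicate 1 or 2. They were 1509 without TCKO replicate 3, 1702 without WT replicate 3, 1729 under the block and 197 with the sums. Mcm6, a subunit of the replicative helicase, had 74.0, 73.7 and 59.8 CPM in TCKO, against 30.2, 32.6 and 32.1 CPM in WT (log2 fold change 1.13, edgeR adjusted p = 0.000407). The summed level of the list was 846.8 to 894.8 CPM in TCKO and 561.8 to 683.2 CPM in WT. Per 100 reads of this list, Uhrf1 had 4.95 to 5.77 in TCKO and 4.03 to 5.24 in WT, Dnmt1 had 12.2 to 13.0 in TCKO and 12.4 to 14.4 in WT, and Hells had 1.72 to 2.52 in TCKO and 1.54 to 1.93 in WT. Tet3, counted in the same way, had 6.61 to 7.78 in TCKO and 6.09 to 8.25 in WT. The genotypes overlapped in each of these quotients. The part of the share of cells in S phase in these differences was not tested.

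**Figure D5:**
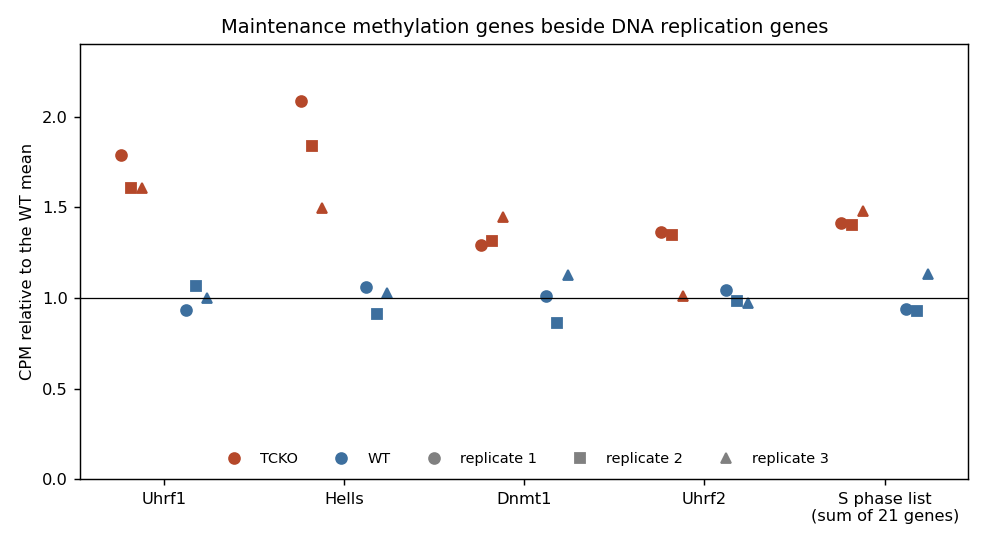
CPM relative to the WT mean on the y axis for Uhrf1, Hells, Dnmt1, Uhrf2 and the sum of 21 S-phase genes, with TCKO libraries in red left of WT libraries in blue and symbols for replicates 1 to 3. TCKO lies above WT without overlap for Uhrf1, Hells, Dnmt1 and the S-phase sum, while for Uhrf2 replicate 3 of TCKO is level with WT.

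Markers of the labelled and of other cell types moved with genotype as well. Osteoblast markers summed to 21720 to 38040 CPM in TCKO and 41530 to 44690 CPM in WT, with 1 higher and 5 lower of 9 tested. Col1a1, the main bone collagen, had 8947 to 12830 CPM in TCKO and 17130 to 18670 CPM in WT, while Spp1, the gene of osteopontin, had 3813 to 10570 CPM in TCKO and 861.1 to 2031 CPM in WT and was the marker that was higher. The late markers Bglap and Dmp1 were not listed. The number of osteoblast markers lower was 2 without TCKO replicate 1, 3 without TCKO replicate 2, WT replicate 1 or WT replicate 2, and 0 with replicates 1 and 2 summed, and Spp1 did not pass in any of these fits or under the replicate block. Chondrocyte markers summed to 758.5 to 1026 CPM in TCKO and 6580 to 8644 CPM in WT, with 10 of 10 lower, and 4 lower with replicates 1 and 2 summed. Macrophage and leukocyte markers summed to 172.6 to 570.4 CPM in TCKO and 448.1 to 793.8 CPM in WT, with 2 of 10 tested lower. That number was 7 under the replicate block, 6 without WT replicate 3, and 1 without TCKO replicate 1, TCKO replicate 2, WT replicate 1 or WT replicate 2, as well as with replicates 1 and 2 summed. Endothelial markers summed to 40.7 to 111.5 CPM in TCKO and 7.83 to 8.87 CPM in WT, with 2 higher and 1 lower of 3 tested. In TCKO most of this sum came from Kdr, a VEGF receptor that was higher (35.5 to 105.7 CPM in TCKO, 0.380 to 1.80 CPM in WT), whereas Erg, an endothelial transcription factor, was lower (0.246 to 0.997 CPM in TCKO, 4.19 to 4.49 CPM in WT), and Pecam1, Cdh5, Tek, Emcn and Vwf had too few reads to be tested. The number of endothelial markers higher was 1 without TCKO replicate 1, WT replicate 1 or WT replicate 2, and with replicates 1 and 2 summed. The part of these cell types in the differences of the 10 genes was not tested.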

How the data were processed

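RNA was taken from primary osteoblasts of 3-day-old TCKO and WT mice after 3 days in culture, with 3 libraries per genotype. Whole-number read counts per gene were made and deposited by the authors from reads mapped to GRCm38, with HISAT2 according to the submitters' processing notes and with STAR according to the published methods. For the counting program, the sources used here name none. The authors' columns of genotype means, fold change, p and FDR were not used. Group and replicate came from the sample titles.

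Counts were analysed in R 4.3.3 with edgeR 4.0.16 (filterByExpr by genotype, TMM, robust quasi-likelihood fit and test, Benjamini-Hochberg over 13630 genes, 2825 not tested). The standard error is the log2 fold change over the root of F, and CPM values carry TMM scaling. RPKM divides CPM by the union exon length of the GENCODE annotation for GRCm38, which also gave gene coordinates, 1-based. Promoter sequences are those of RefSeq for GRCm38.p6. Profiles used a prior count of 2.

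Alternatives were DESeq2 1.42.0, its size factors, limma-voom (limma 3.58.1), no filter, a replicate block, each library left out, replicates 1 and 2 summed, and replicate 3 left out. Deviations from the genotype means correlated between same-numbered libraries at 0.18, 0.18 and 0.32. By the rule adopted (every pair over 0.1) the numbers were taken to pair samples, but only in the replicate block. The main fit and the exact tests used genotype alone, without pairing. No label says that the numbers pair samples, and replicates 1 and 2 correlated as much across numbers (0.23 for TCKO 1 with WT 2, 0.17 for TCKO 2 with WT 1). In simulated TCKO and WT counts with 13469 genes tested, edgeR recovered 74% of 100 genes at a log2 fold change of 1 and 16% of 100 at 0.5, with 9 false calls. The simulated libraries were independent, without the likeness of replicates 1 and 2, and few genes were changed, none of them of low count. These rates may therefore not hold for the real libraries. All 10 genes are named; list genes were named when they passed, when they were among the 4 smallest adjusted p of a list, or when not listed in the table. The genes, lists and alternatives were chosen with earlier results of these data known. Some list genes that are counted are not reported here by name.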

Additional observations from a re-analysis of the deposited data

How the results depend on the processing

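Of 239 values under an alternative, 205 stayed close to the value reported (same direction and same side of the threshold, or for counts within 1.5 times), 11 lost and 2 gained a call, 16 moved further and 5 changed sign. The exact tests of ratios cannot pass under any setting. The settings with DESeq2 size factors, no filter, the DESeq2 test, limma-voom and the replicate block changed no call of the 10 genes. Under the replicate block Tet1 had an edgeR adjusted p of 0.0194 and Uhrf2 of 0.0506. Among the genes of the pathway lists (cell type markers not included) the block ended the call of Zbtb38 (0.0602) and gave calls to Idh1 (0.00861), Zfp57 (0.0285), Kdm1a (0.0249), Rrm2 (0.0207), Gins2 (0.0304) and Slbp (0.0485), all of them chosen once their values were known, and changed no other call.

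With replicates 1 and 2 summed, Tet1 (-1.03, edgeR adjusted p = 0.125), Tet3 (0.49, 0.101), Dnmt1 (0.42, 0.190) and Zbtb4 (-0.62, 0.105) lost their calls, 1 of the 10 genes was higher and 0 were lower, and of the pathway list genes 1 was higher and 0 were lower. That fit has fewer samples, and 2.44% of all genes passed in it. With replicate 3 of both genotypes left out, Uhrf2 passed (0.43), and 41 pathway list genes were higher and 11 lower. Calls rose over all genes too, with 3243 higher and 3128 lower, or 46.3% of those tested. The cause was not tested. In that fit 8 of 9 osteoblast and 8 of 10 macrophage and leukocyte markers were lower, and the DESeq2 test found 5 macrophage and leukocyte markers lower, against 2 with edgeR.

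Leaving out the libraries singly, the log2 fold change ran from -1.17 to -0.78 for Tet1, from -0.42 to -0.16 for Tet2, from 0.42 to 0.52 for Tet3, from 0.34 to 0.53 for Dnmt1, from -0.17 to 0.03 for Dnmt3a, from -0.30 to 0.04 for Dnmt3b, from 0.68 to 0.78 for Uhrf1, from 0.24 to 0.44 for Uhrf2, from 0.04 to 0.15 for Tdg and from -0.77 to -0.60 for Zbtb4. Dnmt3a was above 0 without TCKO replicate 3 (0.0297) and Dnmt3b without TCKO replicate 2 (0.0398). The number of the 10 genes higher ran from 2 to 4 and lower from 1 to 2, and that of pathway list genes higher from 10 to 26 and lower from 1 to 5. Over all genes tested, the number higher ran from 612 to 1702 and the number lower from 578 to 1611. The difference of TCKO minus WT ran from 0.302 to 0.758 RPKM for the summed TET level, from -8.97 to -7.34 percentage points for the share of Tet1, from -6.49 to -5.21 for that of Tet2 and from 12.9 to 15.4 for that of Tet3. For log2 ratios it ran from 0.32 to 0.53 for Uhrf1 to Uhrf2, from 0.20 to 0.45 for Uhrf1 to Dnmt1, and from -0.13 to 0.34 for Dnmt3a to Dnmt3b, with values of -0.13, -0.01 and -0.05 below 0.

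Depth limits Dnmt3b most, followed by Tet1. The fit that sums replicates 1 and 2 is the strictest by number of calls, and 1 of the 5 calls holds in it. It does not count the 2 much alike libraries of a genotype as separate, and it also has fewer libraries. The part of each in the lost calls was not tested.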
